A study of Mus musculus with 6 samples.

Results

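The BEN domain family was followed in 6 RNA-seq libraries of mouse dorsal striatum, 3 labelled Ash1l heterozygous (Ash1l het) and 3 wild type (WT). All came from C57BL/6 mice at an age of 1 year, with no treatment named. It was represented by 7 genes, Bend3, Bend4, Bend5, Bend6, Bend7, Nacc1 and Nacc2, out of 34745 genes in the deposited table. All 7 were found by gene name, and all 7 passed the filter on low counts that left 15267 genes for testing. The family was chosen from a measured value: Bend6 was among the genes that differed between these same libraries, and the other 6 were added for the domain they share with it. The values of Bend6 between the genotypes are therefore given as a description. Ash1l encodes a methyltransferase of lysine 36 on histone H3, and the sources used here do not name the mutant allele. Nothing in the labels says that each library came from a separate mouse, so the p-values measure the spread between these libraries.

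The BEN domain is a small DNA-binding and protein-binding fold, named after BANP, the viral protein E5R and NAC1. Proteins that carry it mostly act as transcriptional repressors. Some, such as BEND6 and BEND5, hold little besides the domain. BEND6 is known as a corepressor that binds RBPJ, the DNA-binding factor of the Notch pathway, and dampens Notch target genes in neural cells. BEND3 carries several BEN domains and acts at heterochromatin and at promoters kept silent by Polycomb. NACC1 and NACC2 join a BTB domain, which pairs proteins with each other and with histone deacetylase complexes, to a BEN domain. The Nacc1 transcript was first described as one raised by cocaine in the nucleus accumbens, the ventral part of the striatum.

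The libraries held 12080663 to 18798694 counts. Levels are given as CPM, counts scaled to library size with TMM factors that even out differences in composition, unless FPKM, which also divides by gene length, is named. Ash1l itself stood at 308, 295 and 293 CPM in WT and at 281, 198 and 253 CPM in Ash1l het. All 3 Ash1l het libraries lay below WT, but the difference of -0.29 on the log2 scale (SE 0.13) did not pass (adjusted p = 0.858 by edgeR). Markers of spiny projection neurons, the principal striatal neurons, were present, as 11 of 11 genes passed the filter and summed to between 8428 and 10516 CPM. The protocol in the labels names male mice, but Xist lay between 1956 and 2957 CPM in the 6 libraries, and 4 Y-linked genes had 1 count in WT replicate 1 and 0 counts in the others. Ash1l het replicates 1 and 2 stood apart on the first principal component, at -28.1 and -28.5, from the other 4 libraries, at 4.18 to 23.8.

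Bend6 (ENSMUSG00000042182) lies on chromosome 1 at 33852052 to 33907816 of GRCm38, on the minus strand. Its upstream DNA is shown because it lies in the 408 bases between Bend6 and the next gene, Dst, which runs in the opposite direction, so that the annotated starts of both genes border the same short interval. The 201 bases that follow reach outward from the first annotated base of Bend6 (chr1:33907817-33908017, minus strand, 5′ to 3′, RefSeq, GRCm38.p6), and capitals mark a match to the cAMP response element.

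Bend6 upstream: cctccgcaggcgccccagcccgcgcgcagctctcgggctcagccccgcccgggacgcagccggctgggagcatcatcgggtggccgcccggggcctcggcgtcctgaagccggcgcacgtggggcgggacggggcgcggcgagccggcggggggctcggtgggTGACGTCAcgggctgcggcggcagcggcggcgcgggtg

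The stretch holds 34 CpG pairs and no transcribed base of Bend6. The capitals, TGACGTCA, lie 31 bases upstream of the first annotated base. This motif was searched for after the sequence had been seen. Of 32851 RefSeq windows of 300 bases around gene starts, on both strands, 1.79% hold it, and of the 8 windows that belong to 5 of the family members only the 2 overlapping windows of Bend6 do. Those 2 windows hold 56 and 48 CpG pairs, where the median over all windows is 7. None of the 8 windows holds CCAATTGG, a site bound by BEND5, or CCCACGCG, a site bound by BEND3, which are found in 0.435% and 1.07% of all windows. TGGGAA, the core of the site bound by RBPJ, is found in 25.6% of all windows and in 1 of the 8, at the inner start of Nacc2. A match or its absence describes these letters only.

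Bend6 transcript was higher in Ash1l het, by 2.63-fold (95% interval 2.19 to 3.14). It stood at 33.6, 30.1 and 33.1 CPM in WT replicates 1, 2 and 3. In Ash1l het replicates 1, 2 and 3 it stood at 91.4, 74.5 and 88.5 CPM. The groups did not overlap, and the lowest Ash1l het library lay far above the highest WT library. The WT mean was 32.3 ± 1.88 CPM and the Ash1l het mean 84.8 ± 9.05 CPM (SD, n = 3 each), from 406 to 572 counts per WT library and 1143 to 1610 per Ash1l het library. The log2 fold change was 1.39 (SE 0.12), and the value that chose this gene was an edgeR quasi-likelihood adjusted p of 0.00437 over all 15267 genes. Of these, 55 genes had a larger rise on the log2 scale. A mean CPM over both genotypes at least that of Bend6 was found for 3 of those 55 and for 3447 of all tested genes. That mean includes the raised Ash1l het libraries, and the place restates the contrast that chose Bend6.

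**Figure D1:**
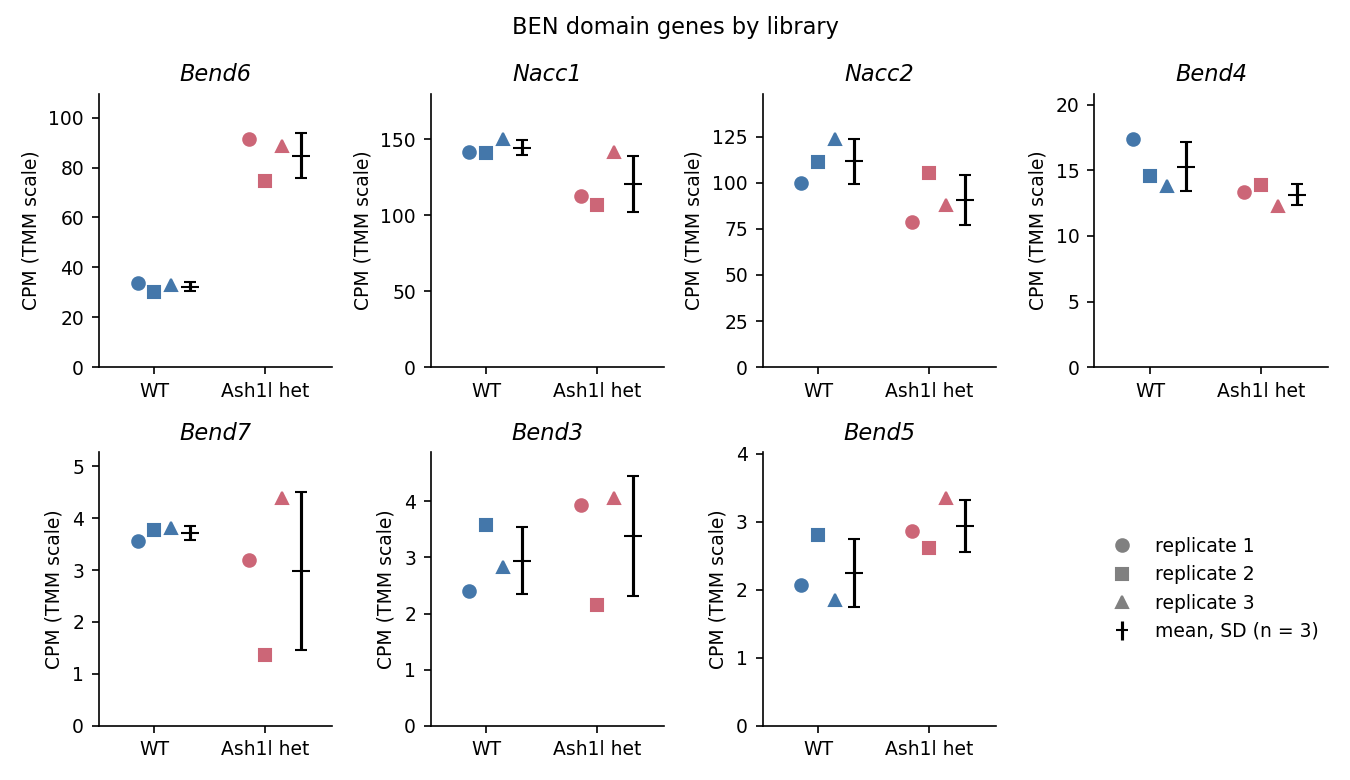
CPM on the TMM scale of each of the 7 BEN domain genes, by genotype, with a symbol for each replicate and the mean with SD (n = 3) beside them; every axis starts at 0. The 3 Ash1l het libraries of Bend6 lie between 74.5 and 91.4 CPM, above the WT libraries at 30.1 to 33.6 CPM, while the libraries of the other 6 genes overlap between the genotypes.

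Of the 7 members 1, Bend6, passed an adjusted p of 0.05 in the higher direction and 0 in the lower direction, where 0.0131% of all tested genes passed in the higher, 0% in the lower and 0.0131% in either direction. DESeq2 also called 1 of 7, where it called 0.256% of genes. Libraries of the genotypes did not overlap for 1 of 7 members, Bend6, where they did not for 6.18% of genes as higher, 5.53% as lower and 11.7% in either direction. Because Bend6 was chosen on this contrast, these counts support nothing about the family.

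Without WT replicate 3 the Bend6 log2 fold change was 1.41, but its edgeR adjusted p was 0.0823; with each of the other 5 libraries left out in turn it ran from 1.34 to 1.48 and the adjusted p stayed under the threshold. Blood cell genes differed between the genotypes in the same libraries. All 5 of 5 were higher in Ash1l het by sign (0 called by edgeR, 5 by DESeq2 and 5 with an unadjusted p under 0.05), none was at 0, and their sum was 56.1 to 122.9 CPM in Ash1l het, above the 23.0 to 35.4 CPM of WT. In Ash1l het replicates 1, 2 and 3 the blood sums were 122.9, 109.5 and 56.1 CPM, beside 91.4, 74.5 and 88.5 CPM of Bend6. With the globin level as a covariate the Bend6 log2 fold change was 1.55 (SE 0.28, unadjusted p = 0.000504, adjusted p = 0.9998 by edgeR). In that fit 0 of all 15267 genes passed. Because the blood sums did not overlap between the genotypes, the fit cannot separate blood from genotype, and the part of blood in the Bend6 difference was not tested. The summed markers of spiny projection, cortical and thalamic neurons, of choroid plexus, astrocytes, oligodendrocytes and their precursors, microglia and endothelial cells overlapped between the genotypes, and no marker of these lists was at 0 in all libraries. Single markers, which the sums can hide, differed more, and those named below were chosen after their values were seen. The astrocyte gene Gfap stood at 154, 62.1 and 83.7 CPM in WT and at 412, 733 and 104 CPM in Ash1l het. It was highest in the 2 libraries that stood apart on the first component (log2 difference 2.06, SE 0.81, adjusted p = 0.858 by edgeR). The other listed astrocyte markers, Aqp4, Gja1, Aldoc, Slc1a3 and Aldh1l1, differed on the log2 scale by -0.085 to 0.19. Each had overlapping libraries and an SE larger than its difference. By sign, 6 of 6 endothelial and 6 of 6 oligodendrocyte markers were higher and 9 of 11 spiny projection neuron markers lower. Outside the blood list, Tac1, Clic6 and Pecam1 were higher and Lef1, Gpr17 and P2ry12 lower in Ash1l het without overlap, and none passed by edgeR. The part of these markers in the Bend6 difference was not tested. In bulk tissue, more cells that make a transcript and more transcript per cell cannot be told apart.

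Nacc1 and Nacc2, the members with a BTB domain, had lower means in Ash1l het, but neither passed. Nacc1 (chromosome 8, 84670483 to 84687862, minus strand) stood at 142.0, 141.3 and 150.2 CPM in WT. In Ash1l het it stood at 112.9, 106.8 and 141.4 CPM. Ash1l het replicates 1 and 2 lay below every WT library, and Ash1l het replicate 3 was level with the lower WT libraries. On the log2 scale it differed by -0.26 (SE 0.12, 95% interval -0.54 to 0.014, adjusted p = 0.858 by edgeR). The direction turned with the globin covariate, to 0.20 (SE 0.25).

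Nacc2, whose protein recruits the NuRD deacetylase complex (chromosome 2, 26055535 to 26123220, minus strand), stood at 99.7, 111.4 and 123.7 CPM in WT and at 78.7, 105.4 and 88.1 CPM in Ash1l het. Of the Ash1l het libraries only replicate 2 reached the WT range. The difference on the log2 scale was -0.30 (SE 0.13, 95% interval -0.60 to 0.0032, adjusted p = 0.858 by edgeR). As a share of WT, the intervals run from 68.8% to 100.9% for Nacc1 and from 66.0% to 100.2% for Nacc2. Exons of the antisense gene Gm13554 share 6.10% of the exon bases of Nacc2, but that gene had 0 counts in all 6 libraries. Trmt1 overlaps Nacc1 on the opposite strand without sharing an exon base.

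The other 4 members were expressed at low levels and none passed. Bend4 (chromosome 5, 67392147 to 67428310, minus strand) stood at 17.4, 14.6 and 13.8 CPM in WT and at 13.3, 13.9 and 12.3 CPM in Ash1l het. On the log2 scale it differed by -0.21 (SE 0.14, adjusted p = 0.893 by edgeR), and Ash1l het replicate 2 lay just above the lowest WT library. Exons of the opposite-strand genes Gm26756 and Gm42632, with 2 to 7 and 5 to 12 counts a library, share 1.21% and 3.22% of the exon bases of Bend4, and reads of such partners cannot be told apart if counting ignored strand. Bend5, whose protein binds DNA as a repressor (chromosome 4, 111415006 to 111460298, plus strand), stood at 2.07, 2.81 and 1.85 CPM in WT and at 2.86, 2.61 and 3.35 CPM in Ash1l het, from 25 to 61 counts a library. On the log2 scale it differed by 0.39 (SE 0.27, adjusted p = 0.893 by edgeR). It lies wholly inside Agbl4 on the same strand but shares no exon base with it, and Agbl4 itself stood at 3.48 to 4.52 CPM in WT and 4.07 to 6.46 CPM in Ash1l het (adjusted p = 0.889 by edgeR).

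Bend3 (chromosome 10, 43479140 to 43515396, plus strand) stood at 2.40, 3.59 and 2.84 CPM in WT and at 3.94, 2.15 and 4.07 CPM in Ash1l het, a log2 difference of 0.20 (SE 0.30, adjusted p = 0.943 by edgeR). Bend7 (chromosome 2, 4717831 to 4802142, plus strand) was even across WT, at 3.56, 3.77 and 3.82 CPM, and spread widely in Ash1l het, at 3.20, 1.37 and 4.40 CPM. On the log2 scale it differed by -0.31 (SE 0.37, adjusted p = 0.928 by edgeR), and without Ash1l het replicate 2, which held 21 counts, it was 0.034 (SE 0.24). Ash1l het replicate 2 thus held the lowest level of both Bend3 and Bend7 among the 6 libraries. The intervals are wide at these counts, from 71.6% to 183.8% of WT for Bend3 and from 45.7% to 143.1% for Bend7, so smaller differences were not detectable, while a log2 fold change as high as that of Bend6 lies outside the intervals of all 4 genes. Banp, the BEN domain gene that gave the domain its first letter and is no member of the 7, averaged 11.7 ± 1.42 CPM over the WT libraries and 11.9 ± 1.82 CPM over the Ash1l het libraries (SD, n = 3 each; log2 fold change 0.021, SE 0.17, adjusted p = 0.988 by edgeR).

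**Figure D2:**
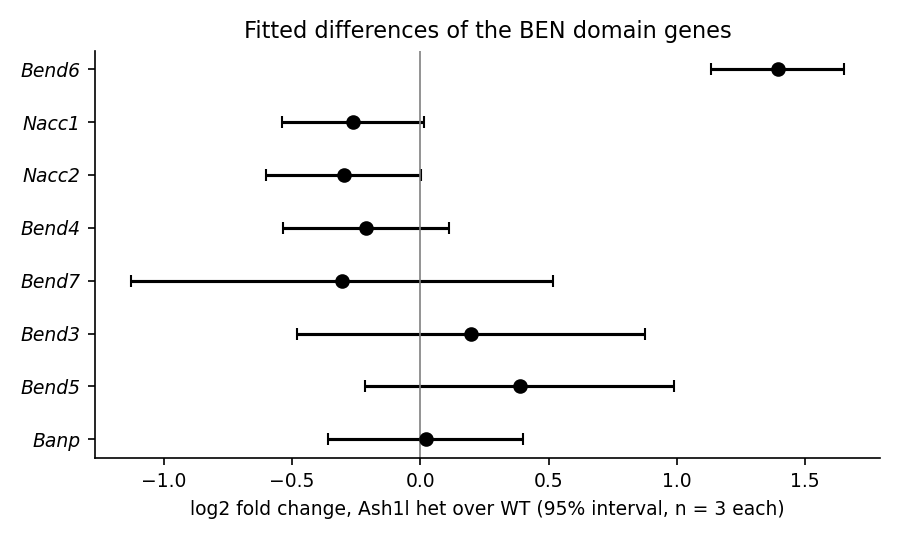
Log2 fold change of Ash1l het over WT (x axis) with its 95% interval from the quasi-likelihood fit, for the 7 members and Banp, 3 libraries per genotype. Bend6 stands at 1.39, the gene the family was chosen on, and the intervals of the other 7 genes reach across 0.

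Levels of different genes were compared per length. In the deposited FPKM, Nacc1 was highest in WT at 33.1 ± 1.56, followed by Nacc2 at 11.1 ± 1.202 and Bend6 at 7.12 ± 0.557 (SD, n = 3 each). The other 4 lay below 1 FPKM, with Bend4 at 0.626 ± 0.0839, Bend7 at 0.519 ± 0.0177, Bend5 at 0.441 ± 0.0893 and Bend3 at 0.253 ± 0.0463. Neighbours in this order did not overlap in WT, apart from Bend7 and Bend5. In Ash1l het Bend6, at 19.2 ± 1.45 FPKM, lay between Nacc1, at 28.2 ± 3.09, and Nacc2, at 9.32 ± 1.76, without overlap. Bend5, Bend4, Bend7 and Bend3 stood at 0.593 ± 0.0494, 0.556 ± 0.0605, 0.423 ± 0.201 and 0.298 ± 0.0844 FPKM there, and each overlapped the next. In FPKM 69.4% of tested genes lay below Bend6 in WT and 88.7% in Ash1l het. Bend6 made up 12.7% to 14.3% of the summed FPKM of the 7 members in the WT libraries and 31.1% to 36.1% in the Ash1l het libraries. The sum of the other 6, nearly all of it Nacc1 and Nacc2, was 44.4 to 48.9 FPKM in WT and 36.5 to 42.5 FPKM in Ash1l het. Nacc1 and Nacc2 each overlapped between the genotypes and did not pass, and the sum was not tested.

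**Figure D3:**
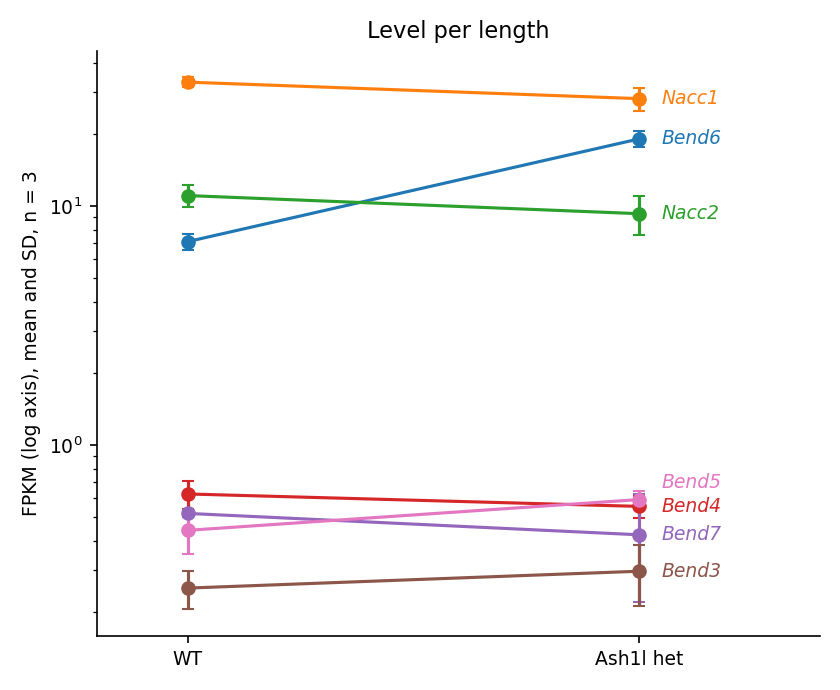
Mean FPKM with SD (n = 3) of the 7 members in each genotype, on a log axis, with a line joining the means of each gene. Bend6 passes from the third place at 7.12 FPKM to the second at 19.2 FPKM, and Bend3, Bend4, Bend5 and Bend7 stay below 1 FPKM.

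For 6 of the 7 members, all but Bend3, the length behind the deposited FPKM equals the sum of every distinct GENCODE exon, with overlapping exons counted repeatedly. It is 4472 bases for Bend6, 24044 for Bend4 and 4300 for Nacc1. With overlapping exons merged, the lengths are 3421, 9886 and 4300 bases, so the FPKM of Bend4, with 2.43 times the merged length, is lowered most and that of Nacc1 not at all. Per kb of merged exons, the WT levels were 33.6 ± 1.15 CPM per kb for Nacc1, 14.3 ± 1.54 for Nacc2, 9.44 ± 0.551 for Bend6 and 1.54 ± 0.189 for Bend4. Bend5, at 1.07 ± 0.238, then lay above Bend7, at 0.886 ± 0.0328, with overlap, and Bend3 was lowest at 0.431 ± 0.0880. In Ash1l het, Bend6 at 24.8 ± 2.65 CPM per kb overlapped Nacc1 at 28.0 ± 4.30, which it did not in FPKM. Which annotated transcripts were expressed is not shown by gene counts, so the true length lies in neither value for certain.

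The genes around Bend6 were examined because position was not part of the choice. Within 500 kb on either side the table holds 17 genes, of which 7 passed the filter and 6 had 0 counts in all libraries. By the edgeR quasi-likelihood test 0 of the 7 passed (0.0131% of all tested genes), 0 had an unadjusted p under 0.05 (5.78%), and DESeq2 called 0 (0.256%). The genotypes overlapped for all 7, where they did not for 11.7% of all tested genes. At these shares, counts of 0 among 7 genes say little. Dst, which encodes dystonin, a linker of the cytoskeleton, and starts on the far side of the 408 bases described above, stood at 724, 645 and 654 CPM in WT. In Ash1l het it stood at 839, 646 and 577 CPM, on both sides of the WT range. On the log2 scale it differed by 0.027 (SE 0.15, 95% interval -0.30 to 0.36, adjusted p = 0.985 by edgeR), an interval that does not reach the value of Bend6.

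Zfp451, the nearest gene on the other side, ends 37.5 kb from Bend6 and is read from the same strand. It encodes a zinc finger protein that acts as a SUMO ligase. It stood at 19.5, 18.0 and 16.4 CPM in WT and at 10.4, 57.2 and 20.2 CPM in Ash1l het. Ash1l het replicate 2 thus lay far above, and replicate 1 below, every WT library. On the log2 scale it differed by 0.70 (SE 0.63, adjusted p = 0.910 by edgeR). Ash1l het replicate 2, the highest library for Zfp451, was the lowest of its group for Bend6. Bag2, an HSP70 cochaperone, and Rab23, a small GTPase of vesicle traffic, differed on the log2 scale by 0.10 (SE 0.25) and 0.20 (SE 0.14). Gm37067, a model inside an intron of Bend6 on the same strand, had 5 to 20 counts a library and a log2 difference of -0.11 (SE 0.60), and it shares no exon base with Bend6.

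**Figure D4:**
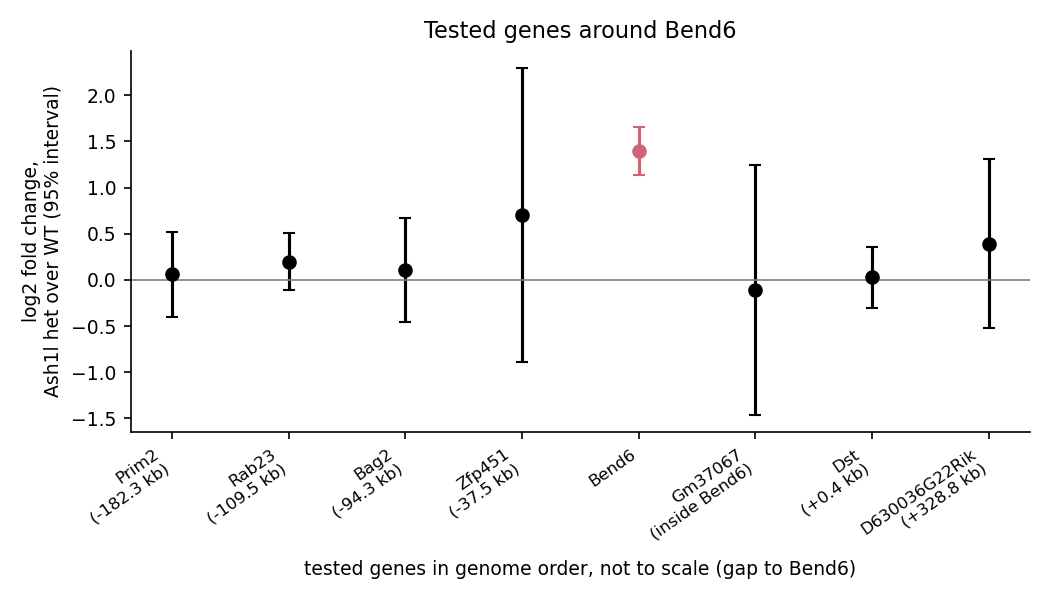
Log2 fold change of Ash1l het over WT with its 95% interval for Bend6 and the 7 tested genes within 500 kb, in genome order and not to scale, with the gap to Bend6 in kb. Bend6 stands at 1.39, Dst at 0.027 and Zfp451, with the widest interval, at 0.70.

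Genes of the Notch pathway, in which BEND6 is known as a corepressor, were described from lists of 51 genes, of which 50 were tested and Hes7 was not. By the edgeR quasi-likelihood test 0 of 50 passed in either direction, where 0.0131% of all tested genes did, and DESeq2 called 0, where it called 0.256%. An unadjusted p under 0.05 was found for 2 of the 50, a share below the 5.78% of all tested genes. By sign 22 were higher and 28 lower, beside 7840 and 7427 of all tested genes, with a median log2 fold change of -0.025, where the median over all tested genes was 0.0063. The genotypes did not overlap for 6 of the 50, a share near the 11.7% of all tested genes, with Lfng and Cir1 higher and Notch3, Psen2, Spen and Ctbp1 lower in Ash1l het. Ctbp1, a corepressor, was named here after its values were seen.

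Among the ligands, which sit on the neighbouring cell, 4 of 5 were lower by sign. Dll1 differed on the log2 scale by -0.28 (SE 0.18) and Dll4 by -0.31 (SE 0.26). Of the 4 receptors 3 were lower by sign. Notch3, the receptor of mural cells, averaged 14.7 ± 1.35 CPM over the WT libraries and 11.9 ± 1.13 CPM over the Ash1l het libraries (SD, n = 3 each; adjusted p = 0.859 by edgeR), and Notch2 differed on the log2 scale by -0.12 (SE 0.12). Of 13 genes that cleave or glycosylate Notch, 9 were higher by sign, among them the glycosyltransferase Lfng at 0.26 (SE 0.14), while the gamma-secretase subunit Psen2 stood at -0.22 (SE 0.16).

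Rbpj itself, the factor that BEND6 binds, stood at 21.2, 38.8 and 32.5 CPM in WT and at 45.3, 25.7 and 39.7 CPM in Ash1l het. The groups overlapped, and the log2 difference was 0.25 (SE 0.27, adjusted p = 0.918 by edgeR). Its coactivator Maml3 differed on the log2 scale by -0.30 (SE 0.16). Of 16 other corepressors of Rbpj, 6 were higher and 10 lower by sign. Spen, a large corepressor scaffold that recruits histone deacetylases, stood at 157, 150 and 148 CPM in WT and at 83.9, 119 and 124 CPM in Ash1l het. Every Ash1l het library lay below every WT library, and on the log2 scale it differed by -0.48 (SE 0.15, unadjusted p = 0.00931, adjusted p = 0.812 by edgeR). Cir1, another corepressor of Rbpj, averaged 14.3 ± 1.92 CPM over the WT libraries and 18.0 ± 1.45 CPM over the Ash1l het libraries (SD, n = 3 each), a log2 difference of 0.34 (SE 0.15, adjusted p = 0.857 by edgeR).

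Of 7 tested Notch targets, 1 was higher and 6 were lower by sign, with a median log2 fold change of -0.11. For each of the 7 the SE was larger than the difference, so the signs show no direction. Nrarp, a feedback inhibitor of Notch, differed on the log2 scale by -0.13 (SE 0.17) and Hes6 by -0.15 (SE 0.32). Hes1, Hes5 and Hey1, repressors that Notch induces, were named after their values were seen. They differed on the log2 scale by 0.097 (SE 0.28), -0.11 (SE 0.30) and -0.092 (SE 0.25), each with overlapping libraries.

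Partners of the other BEN proteins were described in the same way. Of 14 genes tested, 7 for BEND3 and 7 for NACC1 and NACC2, 0 passed by the edgeR quasi-likelihood test (0.0131% of all tested genes), 0 had an unadjusted p under 0.05 (5.78%) and DESeq2 called 0 (0.256%). At these shares, a count of 0 among so few genes says little. By sign 9 were higher and 5 lower, with a median log2 fold change of 0.014. Ezh2 and Suz12, subunits of the Polycomb complex that BEND3 works with, differed on the log2 scale by 0.39 (SE 0.18) and -0.30 (SE 0.17). Ezh2 averaged 6.50 ± 1.00 CPM over the WT libraries and 8.49 ± 0.609 CPM over the Ash1l het libraries (SD, n = 3 each), without overlap, but did not pass (adjusted p = 0.858 by edgeR). Mdm2, the p53 ligase whose gene NACC2 is known to repress, differed on the log2 scale by 0.23 (SE 0.13), and Hdac3, the deacetylase bound by NACC1, by -0.12 (SE 0.13).

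**Figure D5:**
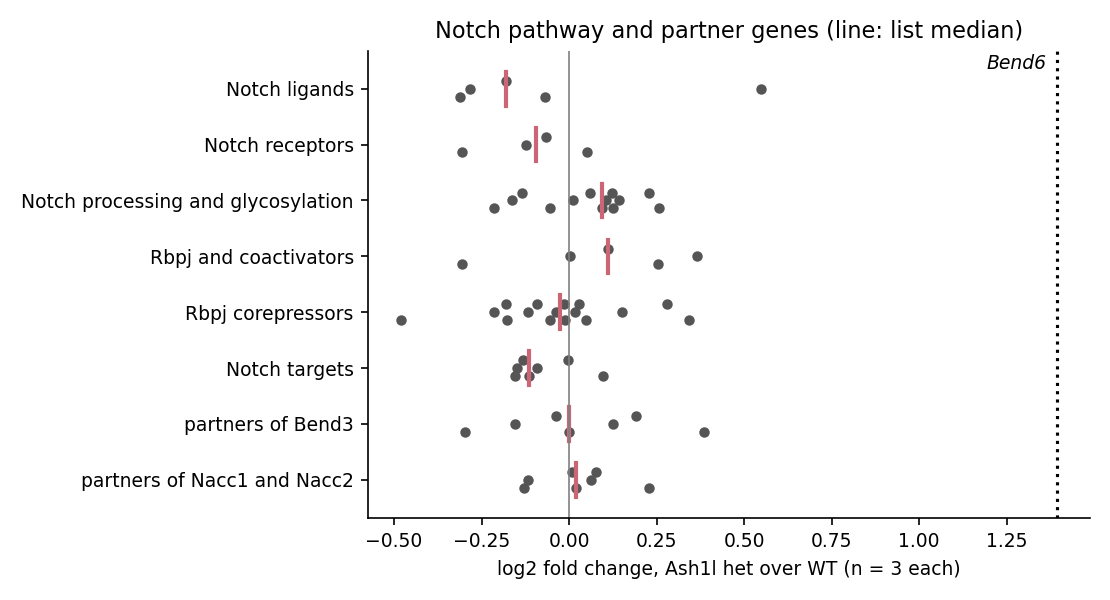
Log2 fold change of Ash1l het over WT (x axis, n = 3 libraries each) for every tested gene of the 6 Notch pathway lists and the 2 partner lists, a point per gene, with the median of each list as a red line and Bend6 as a dotted line at 1.39. List medians lie between -0.18 and 0.11.

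The genes whose pattern over the 6 libraries was most like that of Bend6 were taken from 14397 genes with a mean of at least 1 CPM. By Pearson's r on log2 CPM they were Cp (0.99), Usp46 (0.99), Zfp131 (0.99), Xdh (0.98) and Cmc4 (0.98). The 6 points share the split into genotypes, and none of the 5 genes overlapped between the genotypes, all with Ash1l het above WT, so r describes that split first. Cp, which encodes the copper-carrying ferroxidase ceruloplasmin, stood at 14.7, 14.5 and 14.7 CPM in WT and at 23.7, 21.3 and 24.6 CPM in Ash1l het. Usp46, a deubiquitinating enzyme and the other gene that passed across the whole table, stood at 22.9, 24.3 and 23.6 CPM in WT and at 73.0, 64.4 and 68.3 CPM in Ash1l het. In both genes, as in Bend6, Ash1l het replicate 2 was the lowest of its group. In Cmc4 it was the highest, at 5.34 CPM beside 5.30 and 5.22 CPM in replicates 1 and 3. Because these genes were taken for their likeness to Bend6, a shared order is no separate result. Xdh, which encodes xanthine dehydrogenase, differed on the log2 scale by 0.53 (SE 0.14), Cmc4, a small mitochondrial protein gene, by 0.76 (SE 0.19) and the zinc finger gene Zfp131 by 0.26 (SE 0.10). These 3, with Cp at 0.67 (SE 0.12), did not pass (edgeR adjusted p from 0.396 to 0.857).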

How the data were processed

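RNA of the dorsal striatum was sequenced from stranded mRNA libraries, per the labels' protocols. HISAT2, StringTie, CASAVA, FastQC, edgeR and the build GRCm38 are listed per the submitters' processing notes. No source used here gives their roles or settings, or whether counting used strand. The authors deposited raw counts per gene and FPKM values of the same genes. Counts deposited sample by sample were identical to that table.

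The deposited counts were fitted by genotype alone with edgeR 4.0.16 in R 4.3.3, using TMM factors, its expression filter at a minimum count of 10 and a robust quasi-likelihood test. Benjamini-Hochberg adjustment ran over all 15267 tested genes, with a threshold of 0.05. Fits were tested on simulated data. Alternatives were DESeq2 1.42.0, RLE scaling, no filter, a filter of 1 CPM in 3 libraries, limma 3.58.1 on log2(FPKM + 0.1) and log2(FPKM + 1) above a mean of 0.5 FPKM, a replicate block, a globin covariate and each library left out. Levels per kb of merged exons were added after the data were seen.

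Strand, exons and overlaps are from GENCODE M21 on GRCm38. Promoter windows are from RefSeq (GRCm38.p6), which matched 5 of 7 members. The members and all gene lists were chosen with earlier results of these data known. Named genes are the members, Banp and up to 2 genes of each pathway or partner list by smallest p. The nearest protein-coding neighbours, overlapping genes and the 5 genes most like Bend6 are also named. Other pathway genes whose results are given, and single cell type markers, are said to be chosen after their values were seen.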

Additional observations from a re-analysis of the deposited data

How the results depend on the processing

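Bend6 was called, as 1 of the 7 members, by every alternative except the globin covariate (0 members called) and the fit without WT replicate 3. With single libraries left out, 0 to 1 members were called, and the log2 fold change of Bend6 ran from 1.31 to 1.55 over all 14 alternatives. Nacc2, Bend3, Bend4 and Bend5 kept their direction, and none of the 6 other members passed, under any alternative that could test them; Bend3 and Bend7 fell under the minimum of 0.5 FPKM. The direction of Bend7 turned with the globin covariate (0.58) and without Ash1l het replicate 2 (0.034, in a range from -0.71 to 0.034 over the libraries left out), and that of Nacc1 with the globin covariate (0.20); the cause was not tested. Blood cell genes did not overlap between the genotypes, so this covariate and genotype share much of their variation. Across all genes 2 were called, against 39 by DESeq2 (23 higher, 16 lower), 0 with the globin covariate, and 1 to 13 when a single library was dropped, the fewest on dropping WT replicate 3 and the most on dropping replicate 3 of Ash1l het. No Notch pathway gene, BEN protein partner or neighbour of Bend6 was called under the alternatives run. Bend6 was 21.5% of Nacc1 per length in WT and 68.4% in Ash1l het by FPKM, and 28.1% and 89.4% per kb of merged exons, the difference set by the lengths.

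Same-numbered libraries did not deviate together (r = 0.056, -0.075 and 0.011 across genes for replicates 1, 2 and 3), so the numbers were not taken to pair samples. With 3 libraries per genotype, a weak shared effect could go unseen. With the replicate number as a block, 3 genes and the same 1 member, Bend6, were called, at a log2 fold change of 1.39 (edgeR adjusted p = 0.00993).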
